A study of Caenorhabditis elegans with 2 samples.

Results

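The germ line and oocyte genes described here are 39 of the 19973 nuclear protein-coding genes of Caenorhabditis elegans, chosen by name for their roles in germ cells, oocytes and the egg. Earlier results of these data were known when the list was drawn up. They comprise 13 P granule and germ line small RNA genes, 16 genes of translational control, 6 egg shell genes, and 4 others that encode a Notch receptor, a phosphatase, the yolk receptor and a repressor of transcription. The measurement was chromatin immunoprecipitation and sequencing (ChIP-seq) of REC-8 in whole hermaphrodites of strain YL581. The animals were young adults, 50 hours after synchronization as L1 larvae starved following bleaching, and carried a transgene that stably expresses REC-8 with a GFP-FLAG tag at its C-terminus. The 2 samples are biological replicates of this 1 group; chromatin was sheared by sonication. The immunoprecipitation used an antibody to GFP according to the description, whereas the antibody label names rec-8. An untagged or input sample is not analysed here, and the sources used here do not give the promoter or the copy number of the transgene. Germ cells are only some of the cells of a whole animal, so a signal cannot be assigned to a cell type.

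REC-8 is the kleisin subunit of a meiotic form of cohesin, the ring-shaped complex that holds sister chromatids together. It is loaded on germ line chromosomes and is part of the meiotic chromosome axis. P granules are condensates of RNA and protein at the nuclei of germ cells, where small RNA pathways survey transcripts. Much of the control of gene expression in the worm germ line is exerted on mRNA after transcription, by proteins that bind 3′ untranslated regions, and the oocyte stores many such mRNAs together with the components of the future egg shell.

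The files hold peaks with the position of the summit, the point of highest signal, and the peak caller's signal value. The pooled replicates gave 10019 peaks, replicate 1 gave 17532 and replicate 2 gave 14069. The median signal values of these lists were 48.5, 25.0 and 24.9, and values are compared only within a list. A stricter thresholded list of 739 peaks holds the pooled peaks kept by the authors at a limit on the irreproducible discovery rate, a measure of how well ranks repeat. Read numbers are not analysed here, so depth is unknown, and a missing peak cannot be read as a lack of REC-8. A gene was counted as marked when a summit lay from 1000 bp upstream to 500 bp downstream of a start of one of its protein-coding transcripts. As there is 1 group and no control, no test was made, and counts are set beside the share of all protein-coding genes.

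Most of the 39 genes had a REC-8-GFP summit near a start. In the pooled list 24 of 39 were marked (61.5%), against 21.0% of all protein-coding genes. In replicate 1, 28 were marked (71.8%), against 30.9% of all genes. In replicate 2, 20 were marked (51.3%), against 26.5%. The members' share was thus above that of all genes in each list. Because the members were chosen with earlier results of these data known, these shares are a description and not an independent test. Both replicates marked 14 members (35.9%), against 15.5% of all genes, and the pooled list held all 14 too, against 13.2% of genes marked in all 3 lists. In 12 of the 14 the peaks of both replicates overlapped by at least 50% of the shorter peak. The peaks were mostly of middling strength, since the thresholded list marked only cpg-1 and pie-1, or 2 of 39 (5.13%), against 2.33% of all genes. At least 1 of the pooled and replicate lists marked 34 members (87.2%), against 42.3% of all genes, and fbf-1, oma-1, egg-2, meg-1 and prg-1 were marked in 0 of the 3.

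**Figure D1:**
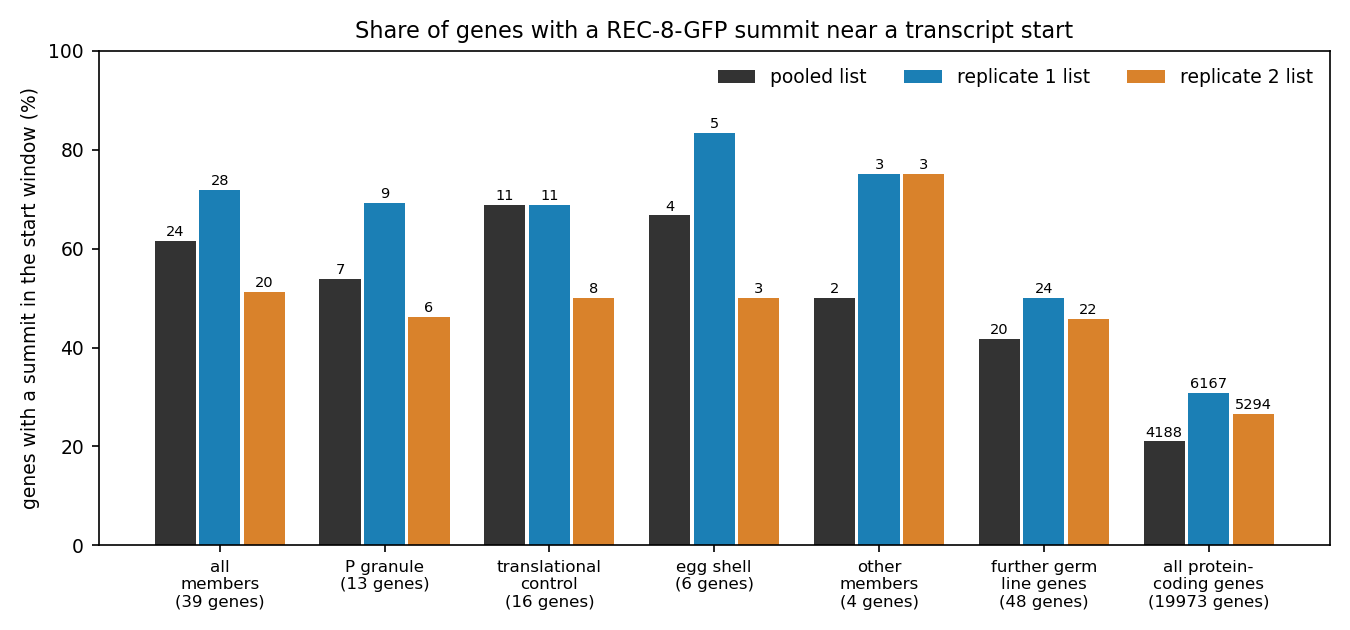
Percentage of genes with a summit in the start window, for the 39 members, their subgroups, 48 further germ line genes and all 19973 protein-coding genes, with 1 bar for each peak list and the number of marked genes above it. All 39 members together stand at 61.5%, 71.8% and 51.3% in the pooled, replicate 1 and replicate 2 lists, and all genes at 21.0%, 30.9% and 26.5%.

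The comparison was repeated with backgrounds more like the members, chosen after the members' values had been seen. All but 1 of the 39 genes are autosomal, and 24 of these 38 were marked (63.2%), against 22.2% of autosomal genes. Genes with a name of 3 or 4 letters and a number, which leaves out those known only by a sequence name, were marked in 23.7%. A gene with several annotated starts has more window to be hit: of the 29 members with 1 start 18 were marked (62.1%), against 17.7% of such genes. None of these backgrounds reached the members' share. Within 250 bp of a start to either side, 10 members were marked (25.6%), against 9.62% of all genes.

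The 3 larger subgroups stood side by side in the pooled list. P granule genes were marked in 7 of 13 (53.8%), translational control genes in 11 of 16 (68.8%) and egg shell genes in 4 of 6 (66.7%). Of the other 4 genes, 2 were marked. Their order was not the same in the replicates, where P granule genes had 9 and 6 marked, translational control genes 11 and 8, and egg shell genes 5 and 3 in replicates 1 and 2. Both replicates marked 4 of 13, 5 of 16 and 3 of 6 of them. The shares of all genes were 21.0% in the pooled list, 30.9% and 26.5% in replicates 1 and 2, and 15.5% in both. With only the outermost start of each gene, the pooled list marked 5 of 13 P granule genes (38.5%), against 18.8% of all genes. Translational control genes stayed at 11 of 16 and egg shell genes at 4 of 6. The subgroups are small and genes are not replicates, so no difference between them was tested.

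The sequences under the pooled start summits of cpg-1, pie-1, csr-1, cgh-1, oma-2 and egg-1 are shown as examples of the strong peaks described here. They are not the 6 strongest, since gld-1, gld-2 and cey-2, which are not printed, had higher pooled signals than some of them. Each is 200 bases of the RefSeq reference genome (WBcel235, the same assembly as ce11) centred on the pooled summit and read along the strand of the gene. Capitals mark motifs that were searched on both strands: GTGGGAA, the site of the Notch pathway factor LAG-1, TTCCCGCC, an E2F site, GAGAGAGA, a run of TTTTTTTT, and GCGGGAA. The last was added after these sequences had been seen, and it lies inside the E2F site as read from the opposite strand. The regions are chrIII:4489039-4489238 for cpg-1, chrIII:12426578-12426777 for pie-1, chrIV:7958169-7958368 for csr-1, chrIII:7498463-7498662 for cgh-1, chrV:8028919-8029118 for oma-2 and chrIII:5727903-5728102 for egg-1. The strand printed is the minus strand for cgh-1 and the plus strand for the others.
cpg-1: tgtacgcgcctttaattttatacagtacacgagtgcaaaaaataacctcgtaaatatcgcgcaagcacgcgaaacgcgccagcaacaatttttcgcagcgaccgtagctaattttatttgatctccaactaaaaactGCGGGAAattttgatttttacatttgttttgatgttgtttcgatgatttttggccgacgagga
pie-1: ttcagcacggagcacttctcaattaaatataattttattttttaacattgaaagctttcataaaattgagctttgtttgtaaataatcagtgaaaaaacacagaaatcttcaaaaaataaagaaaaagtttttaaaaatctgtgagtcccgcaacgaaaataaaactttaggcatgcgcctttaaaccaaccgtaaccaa
csr-1: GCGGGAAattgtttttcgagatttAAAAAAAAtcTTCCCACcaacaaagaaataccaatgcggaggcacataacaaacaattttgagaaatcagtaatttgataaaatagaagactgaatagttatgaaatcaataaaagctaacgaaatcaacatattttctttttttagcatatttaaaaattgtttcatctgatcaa
cgh-1: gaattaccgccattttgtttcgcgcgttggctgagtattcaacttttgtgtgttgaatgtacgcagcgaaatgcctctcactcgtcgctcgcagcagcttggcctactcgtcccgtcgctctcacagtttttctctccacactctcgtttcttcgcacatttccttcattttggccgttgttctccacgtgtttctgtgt
oma-2: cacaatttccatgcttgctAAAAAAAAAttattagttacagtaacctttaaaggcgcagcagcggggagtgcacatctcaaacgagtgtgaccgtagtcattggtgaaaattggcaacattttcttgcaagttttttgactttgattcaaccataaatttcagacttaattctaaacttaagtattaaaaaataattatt
egg-1: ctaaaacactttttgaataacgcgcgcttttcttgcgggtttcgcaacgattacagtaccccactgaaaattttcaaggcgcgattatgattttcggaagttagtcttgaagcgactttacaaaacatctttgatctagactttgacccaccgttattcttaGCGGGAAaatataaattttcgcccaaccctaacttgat

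Few motif matches were shared by these summits. GCGGGAA stood in the 200 bases of cpg-1, csr-1, egg-1, fbf-2 and lip-1, or 5 of the 24 marked members, and in 3.63% of the 3529 distinct summits that marked any protein-coding gene. It was picked after the printed sequences had been seen, and cpg-1, csr-1 and egg-1 are among those, so this comparison is not independent of the choice. GTGGGAA was in csr-1 alone, as TTCCCAC on the printed strand, and in 1.90% of the summits of all genes. The E2F site was in 0 of 24 and in 1.22% of all, and GAGAGAGA was in 0 of 24 and in 2.49%. A run of TTTTTTTT was in 6 of 24 members, which were gld-2, csr-1, oma-2, lip-1, mex-6 and car-1, and in 20.3% of all. A match is a run of letters and not a binding site. The median GC content of the 24 summits was 36.2% (range 25.5 to 49.5), against 39% over the summits of all marked genes. Over whole start windows the order was the other way, at 37.1% for the 39 members and 35.2% for all genes.

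The egg shell gene cpg-1 had the strongest start peak of all members. It encodes a chondroitin proteoglycan of the egg shell. Its summit, 220 bp upstream of the nearest start, had a signal of 198 in the pooled list, 93.4 in replicate 1 and 105 in replicate 2. It ranked 93 of 10019 there, and 128 and 88 in the replicates. The replicate summits lay 14 and 15 bp from the pooled summit, in intergenic sequence and in the window of no other gene. The paralogue cpg-2, another chondroitin proteoglycan of the egg shell, had a start peak in replicate 1 only, with a signal of 36.8 at 258 bp upstream (rank 1999).

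The other egg shell genes were weaker. The oocyte membrane protein gene egg-1, needed for fertilization, had signals of 64.8, 27.2 and 37.5 in the pooled, replicate 1 and replicate 2 lists, at ranks 1850, 6451 and 1553 and with summits 177, 89 and 156 bp upstream. Its paralogue egg-2 was marked in none of them. For cbd-1, which encodes a chitin-binding protein of the egg covering, the signals were 43.5, 25.7 and 25.3, at ranks 7448, 7986 and 6642. The cbd-1 summits were not at 1 place, since they lay 513 and 575 bp upstream in the pooled list and replicate 2 and 452 bp downstream, in a coding exon, in replicate 1. The egg activation gene egg-3 was marked in the pooled list (47.3) and in replicate 1 (30.7) but not in replicate 2.

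Among P granule and small RNA genes, csr-1, cgh-1 and glh-2 had the highest signals in the pooled list, and deps-1 in replicate 2. CSR-1 is an Argonaute that binds small RNAs matching germ line transcripts. Its strongest start peak had a signal of 69.6 in the pooled list (rank 1492), of 33.4 in replicate 1 (rank 2890) and of 37.1 in replicate 2 (rank 1599). The summits lay 344, 226 and 359 bp upstream of an internal csr-1 start, in an intron of csr-1 that is also an intron of the overlapping gene frpr-10. CGH-1 is a DEAD-box helicase of germ granules related to DDX6. The cgh-1 peak had signals of 69.3 (rank 1506), 36.5 (rank 2043) and 32.9 (rank 2480), and its summit lay 731 bp upstream in the pooled list and 745 bp upstream in replicate 1. In replicate 2 the strongest window summit of cgh-1 was 456 bp downstream, in a coding exon, and a peak 28 bp from the pooled summit had a signal of 29.5.

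GLH-2 is a Vasa-related helicase of P granules. Its peak had signals of 64.6 (rank 1864), 29.2 (rank 4917) and 31.4 (rank 2921) in the pooled, replicate 1 and replicate 2 lists. The summit stood 3 bp upstream of the glh-2 start in the pooled list, and 82 and 49 bp upstream in the replicates, in a gap of 98 bp to the divergent gene C55B7.11, whose window it shares. The remaining P granule gene marked in all 3 lists was deps-1, needed for P granule assembly, with signals of 42.0 (rank 8402), 27.7 (rank 6015) and 40.8 (rank 1177). All of its summits, 471, 335 and 495 bp downstream of an internal start, were in coding exons of deps-1. The pooled summit lay 661 bp from the first deps-1 start. Each was also in the window of the divergent gene Y65B4BL.4.

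Other P granule genes were marked in 1 or 2 lists. The Vasa-related glh-1 was marked in the pooled list (42.7) and replicate 1 (24.1), and glh-4 in the pooled list (40.4) and replicate 2 (24.2). The gene of CAR-1, an RNA-binding partner of CGH-1, was marked in the pooled list (44.3) and replicate 2 (29.2), with the pooled summit nearer to the start of coa-5. The scaffold genes pgl-1 (28.4) and pgl-3 (20.1), the RNA-dependent RNA polymerase gene ego-1 (26.4) and glh-3 (20.0) were marked in replicate 1 alone. The values of pgl-3 and glh-3 were close to the lowest of that list, 19.9. The Piwi Argonaute gene prg-1 and the embryonic granule gene meg-1 had no start peak in the 3 lists.

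Among translational control genes, the 11 pooled start peaks ranged in signal from 42.1 at gld-3 to 78.3 at gld-1. GLD-1 is a KH-domain repressor of translation needed for oocyte development. The gld-1 peak was strong in replicate 2 and weak in replicate 1, with signals of 78.3 in the pooled list (rank 1103), 23.3 in replicate 1 (rank 10999) and 52.9 in replicate 2 (rank 578). The replicate 1 summit lay 432 bp upstream, away from the 149 and 143 bp of the pooled list and replicate 2, so replicate 1 did not hold the same peak. GLD-2, the cytoplasmic poly(A) polymerase, had the opposite order, with signals of 69.7 (rank 1491), 36.9 (rank 1963) and 28.4 (rank 4303) and summits 20, 26 and 38 bp upstream of a start. GLD-3, a KH-domain partner of GLD-2, was marked in the pooled list (42.1) and replicate 1 (21.8), within its coding sequence.

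For oma-2, a zinc finger gene of oocyte maturation, the signals were 68.9 (rank 1537), 40.5 (rank 1421) and 31.3 (rank 2974), with summits 420, 361 and 423 bp upstream. Its paralogue oma-1 was marked in no list. The Y-box gene cey-2 had signals of 69.0 (rank 1530), 26.2 (rank 7361) and 37.0 (rank 1610). Its summits lay 206 and 198 bp upstream in the pooled list and replicate 2, and 11 bp downstream in replicate 1. The zinc finger gene mex-6, needed for polarity of the early embryo, had signals of 45.3 (rank 6432), 20.2 (rank 16688) and 25.5 (rank 6405), close to the lowest value of the list in replicate 1 and near the median in replicate 2. Its summits, 571, 564 and 596 bp upstream, repeated closely in position and were nearer to the start of AH6.17 on the same strand.

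The zinc finger gene pos-1 was marked in the pooled list (59.2, 485 bp downstream) and in replicate 1, where the strongest window peak was another one (35.1, 897 bp upstream in an intron of vha-18). Peaks of 30.4 in replicate 1 and 25.9 in replicate 2 lay 1 and 62 bp from the pooled pos-1 summit, the latter outside the window. The RNA-binding protein gene spn-4 was marked in the pooled list (53.5) and replicate 1 (35.8). The PUF-family gene fbf-2, a regulator of germ line stem cells (50.0 in the pooled list and 37.4 in replicate 2), and puf-5, a PUF gene of oocytes (42.4 and 21.4), were marked in the pooled list and replicate 2. The spn-4 summit was nearer to the divergent gene spe-39, and the fbf-2 summit lay in a coding exon of nspg-3. The KH-domain gene mex-3 (27.6), the Nanos-family gene nos-2 (34.4) and the Y-box gene cey-3 (23.4) were marked in replicate 1 alone, and fbf-1 in no list.

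The zinc finger gene mex-5 is a special case, because its divergent neighbour is rec-8, the gene whose protein was tagged. The gap between both starts is 530 bp. In the pooled list the strongest mex-5 window peak (57.1, rank 2805) had its summit 523 bp upstream of mex-5 and 7 bp from the start of rec-8, and a weaker peak (50.2) lay 195 bp upstream of mex-5. Replicate 2 had a summit 319 bp upstream (38.1, rank 1465), and replicate 1 had none in the window. A further pooled summit of 80.8 lay in an intron of rec-8, and one of 76.0 lay just past its 3′ end. Extra copies of rec-8 sequence carried by the transgene would be counted at this locus, and their part in these peaks was not tested. Without mex-5 the pooled count is 23 of 38.

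Of the other 4 genes, pie-1 had the second strongest start peak among all members. PIE-1 is a zinc finger protein that represses transcription in germ line precursor cells. Its signal was 104 in the pooled list (rank 561), 53.3 in replicate 1 (rank 670) and 56.3 in replicate 2 (rank 511). The summits of the pooled list and replicate 2 lay 215 and 225 bp upstream. In replicate 1 the strongest window summit lay 315 bp downstream of an internal start, in a coding exon near the gene end. A pooled summit with a signal of 77.4 lay at 90.7% of the gene body. At the upstream place, replicate 1 had a peak 1 bp from the strongest pooled summit, with a signal of 49.4. The phosphatase gene lip-1 was weak but repeated, with 47.7 (rank 5324), 25.3 (rank 8385) and 21.6 (rank 11202) at 267, 260 and 224 bp upstream. The Notch receptor gene glp-1 was marked in replicate 1 alone (30.2), and the yolk receptor gene rme-2 in replicate 2 alone (33.3).

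**Figure D2:**
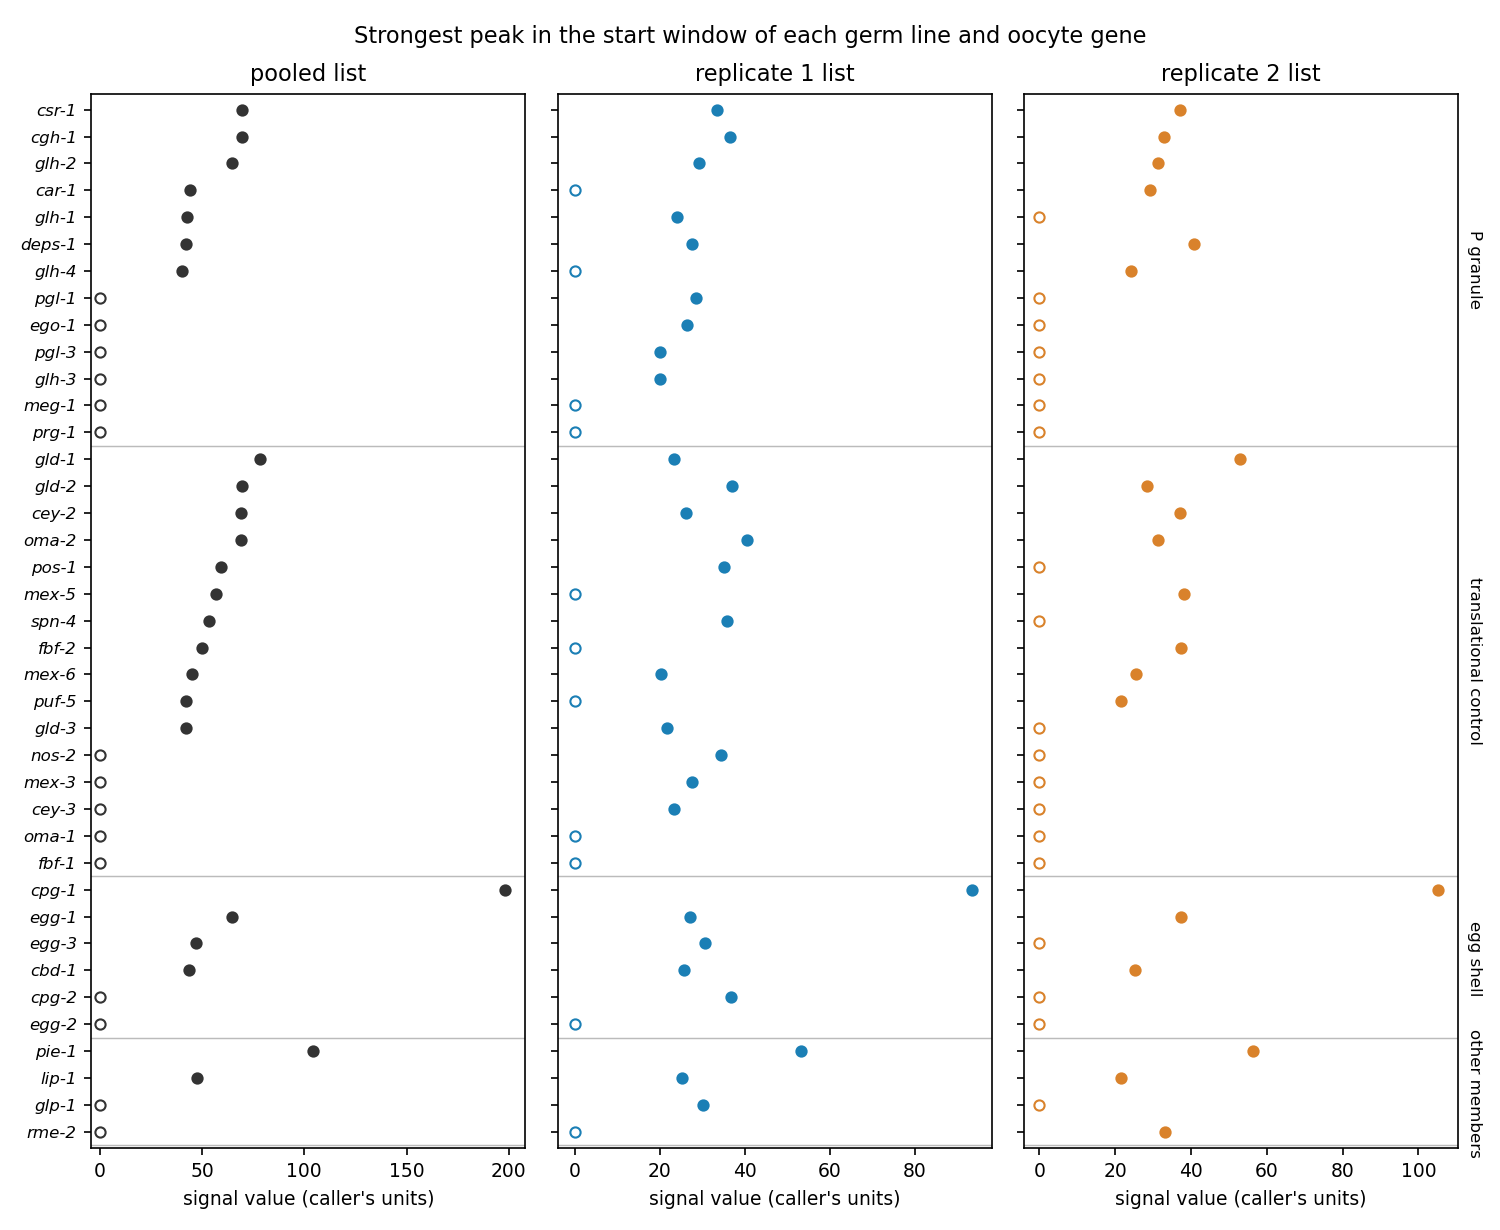
Signal value of the strongest peak in the start window of each of the 39 genes, by subgroup, with 1 panel for each peak list on its own scale; open circles at 0 are genes with no summit in the window. The genes cpg-1 (198 in the pooled list) and pie-1 (104) stand apart to the right, and the other marked genes lie between 40.4 and 78.3 in the pooled list.

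The median member peak ranked above the median peak of all marked genes in each list. The median P granule peak ranked below that of all marked genes in the pooled list, but above it in both replicates. The median rank of the 24 marked members was 3146.5 of 10019 in the pooled list, against 4054.5 over all marked genes and 6975 over the 7 marked P granule genes. In replicate 1 the medians were 5739 for members, 7107 for all marked genes and 6015 for P granule genes. In replicate 2 they were 2429, 5880.5 and 2700.5. Counting unmarked genes as 0, the median pooled signal was 42.7 over the 39 members and 0 over all genes. The 0 follows from the 21.0% of all genes that were marked, so this contrast restates the shares and is no measure of strength.

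Repeatability at the level of single peaks was like that of other genes. Of the 24 strongest pooled start peaks, 12 (50.0%) had a summit within 150 bp in both replicates, against 49.6% for all marked genes. A further 4 were found in replicate 1 only, 7 in replicate 2 only, and 1, at mex-5, in neither. The 12 included cpg-1, pie-1, gld-2, csr-1, cgh-1, oma-2, egg-1 and glh-2, whereas gld-1, cey-2 and cbd-1 had a matching peak in replicate 2 only.

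Within the start window, which reaches 1000 bp upstream but only 500 bp downstream, the strongest summits of members were mostly upstream of a start. Over all pooled summits, 20 lay in the 1000 bp upstream of the outermost starts and 38 in the longer gene bodies. Of the 24 strongest pooled peaks 20 were upstream of the nearest own start (83.3%), against 69.4% of all marked genes. For csr-1 and gld-2 this start was an internal one, and the summit lay in an intron. The median position was 243.5 bp upstream for members and 185 bp upstream for all marked genes, and 9 of 24 lay within 250 bp (37.5% against 43.3%). The start nearest to the summit was the member's own in 19 of 24, and belonged to another gene for spn-4, car-1, mex-6, fbf-2 and mex-5. In 10 of 24 (41.7%) the summit also lay in the window of another protein-coding gene, against 31.8% of all marked genes. Short structural RNA genes (rRNA, tRNA, snRNA and snoRNA) were more than 250 bp away from each of the 24.

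The orientation of the upstream neighbour made little difference in these counts. Of 23 members with a divergent upstream neighbour 14 were marked (60.9%), and of 16 with one on the same strand 10 were (62.5%), against 21.5% and 20.5% of all genes. By chromosome the members are uneven. Of all 39, 13 are on the first chromosome, where 28.0% of all genes were marked, and 8 of these 13 were marked. Chromosomes II and III hold 7 members each, with 5 and 4 marked, where 21.3% and 29.4% of all genes were. Chromosome IV holds 7 with 4 marked, against 20.2% of its genes, and V holds 4 with 3 marked, against 17.0%. The only X-linked member, meg-1, was not marked, and 13.2% of genes on X were.

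Several members are pairs of close relatives, and the pooled list often held only 1 of a pair. A single gene was marked in cpg-1 and cpg-2, egg-1 and egg-2, oma-1 and oma-2, fbf-1 and fbf-2, and cey-2 and cey-3. Both were marked in mex-5 and mex-6 and in glh-1 and glh-2, and neither in pgl-1 and pgl-3. Near-identical copies can lose reads that map to both, and how such reads were treated is not stated in the labels. The share of 36-base words that occur once in the genome was therefore computed for each start window. Its median was 100% in marked and in unmarked members, and the lowest values were 59.2% for glh-4, 69.6% for fbf-1 and 82.7% for glh-1. The part of sequence similarity in the missing fbf-1 peak was not tested.

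REC-8-GFP peaks at these genes were not limited to starts. Gene bodies and gene ends were examined after the start windows. A pooled summit inside the gene body but outside the start window was present in 22 of 39 members (56.4%), against 17.3% of all genes. The stricter thresholded list held such a summit in 0 of 39 members, against 1.04% of all genes. Within 500 bp past the annotated gene end, and outside the gene's own start window, 20 of 39 had a summit (51.3%), against 11.3% of all genes. In replicate 1 these past-end counts were 20 of 39 (51.3%, against 15.1%) and in replicate 2 they were 18 (46.2%, against 12.8%). A past-end summit in both replicates was present in 12 members (30.8%), against 6.40% of all genes. These 12 were car-1, cbd-1, cpg-1, csr-1, deps-1, glh-2, glp-1, mex-3, pgl-1, pgl-3, pos-1 and rme-2.

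In the thresholded list 4 members had a past-end summit (10.3%), against 1.16% of all genes, and it held no start summit of these 4. The past-end summit of cbd-1 lay 50 bp past the gene, with signals of 104.6 in the pooled list (rank 558), 56.3 in replicate 1 (rank 568) and 43.7 in replicate 2 (rank 955). It was 1677 bp from the nearest protein-coding start in the pooled list, and was stronger in each list than the start peak of cbd-1. The cgh-1 past-end summit lay 298 bp past the gene, with 95.5 (rank 695) in the pooled list and 67.2 (rank 333) in replicate 2, and replicate 1 had none there. For csr-1 the summit lay 52 bp past the gene, inside frpr-10 and in its start window, with 94.5 (rank 713), 36.5 (rank 2056) and 55.1 (rank 542). For cey-2 it lay 47 bp past the gene and 63 bp from the start of F46F11.7, with 96.7 (rank 670) in the pooled list and 62.8 (rank 426) in replicate 1.

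Past-end summits were present at members with and without a start summit. Of the 15 members unmarked in the pooled list 8 had a past-end summit (53.3%), and of the 24 marked 12 did (50.0%). Over all genes the shares were 8.97% and 19.9%. The 8 were pgl-1, pgl-3, glp-1, mex-3, oma-1, cpg-2, prg-1 and rme-2. The pgl-3 summit, 173 bp past the gene and 2214 bp from the nearest start, had signals of 89.2 (rank 804), 42.1 (rank 1257) and 43.9 (rank 947). The pgl-1 summit, 112 bp past the gene, had 67.0, 29.8 and 44.5. That of glp-1, 280 bp past the gene and inside ZK507.1, had 68.4, 36.2 and 32.9. For mex-3 the summit (92.0, 48.1 and 42.7) was 31 bp from the start of F53G12.4 and cannot be assigned to the end of 1 gene or the start of the other.

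**Figure D3:**
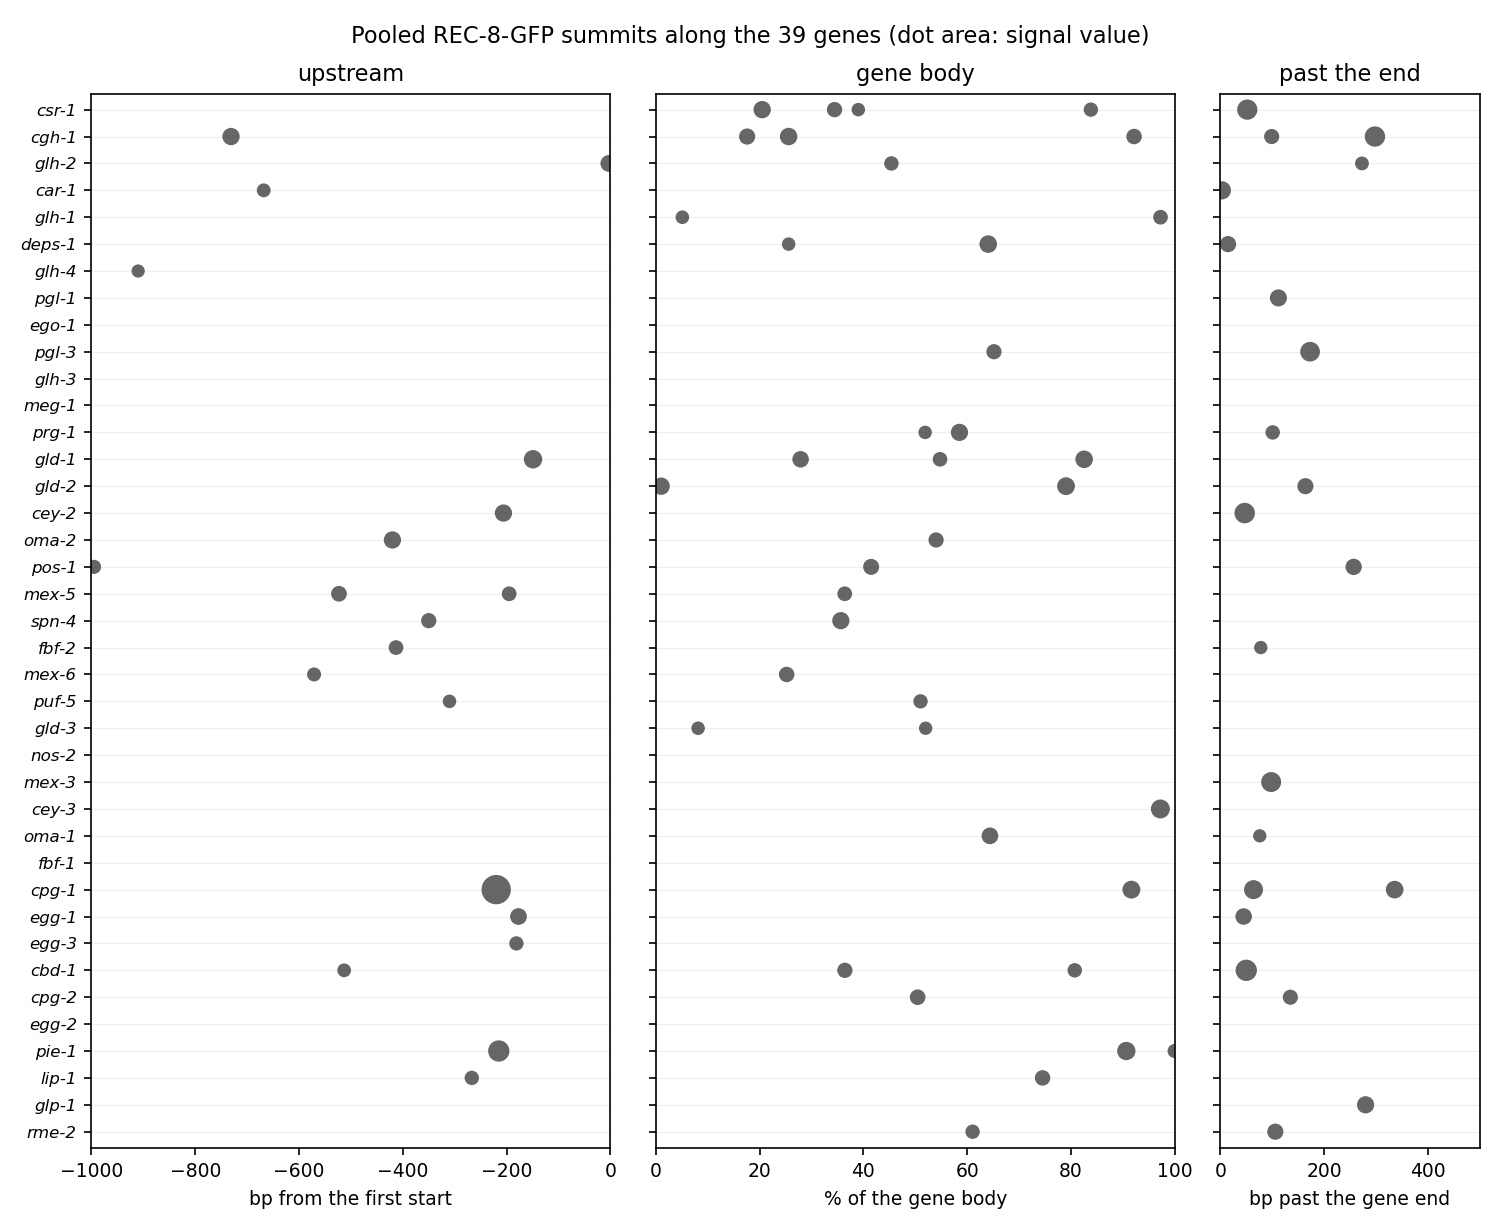
Position of every pooled summit along the 39 genes, with the first 1000 bp upstream of the outermost start in bp, the gene body in percent of its length and 500 bp past the annotated end in bp; dot area is proportional to signal value. The largest upstream dots belong to cpg-1 and pie-1, at 220 and 215 bp, and past-end dots are present for pgl-1, pgl-3, mex-3, cbd-1 and others.

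Worm genes are closely spaced, so peaks past 1 gene can belong to the next. After leaving out summits in the start window of any other gene, 16 of 39 members still had a past-end summit (41.0%), against 6.39% of all genes. This step kept summits that lay inside a neighbouring gene but outside its start window. The only pooled past-end summits of glh-2, gld-2, glp-1, egg-1, cpg-2, deps-1 and prg-1 were of this kind. The density of pooled summits in the 500 bp past the end was 1.13 per kb for members and 0.243 per kb for all genes. In the 1000 bp upstream the densities were 0.513 and 0.147 per kb, and in gene bodies 0.301 and 0.101 per kb. The ratio of members to all genes was 4.63 past the end, 3.49 upstream and 2.99 in the body. In replicate 1 these ratios were 3.69, 2.70 and 2.64, and in replicate 2 they were 3.47, 2.21 and 2.34, so the past-end ratio was the highest of the 3 in each list for the members as a whole. Subgroups did not all follow this order. For translational control genes in the pooled list the ratio was 4.26 upstream and 3.08 past the end, and for egg shell genes in replicate 2 it was 2.70 upstream and 2.37 past the end.

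**Figure D4:**
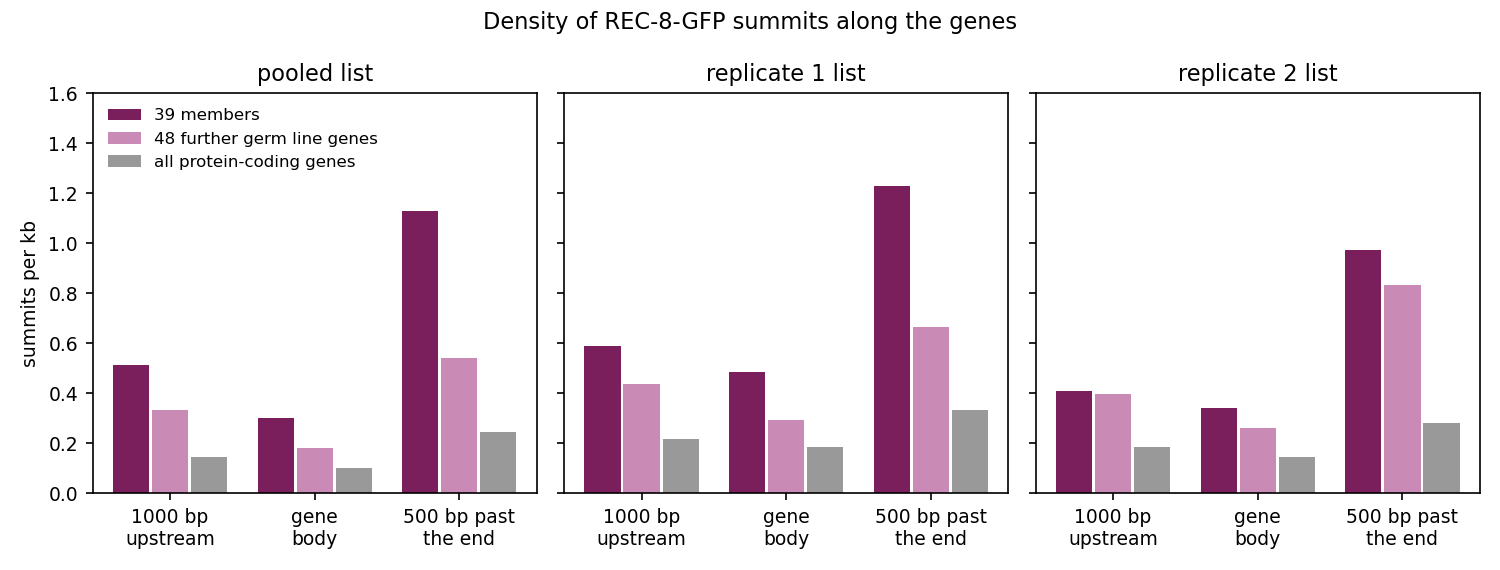
Summits per kb in the 1000 bp upstream of the outermost start, in the gene body and in the 500 bp past the annotated end, for the 39 members, 48 further germ line genes and all protein-coding genes, with 1 panel for each peak list. In the pooled panel the members stand at 0.513, 0.301 and 1.13 per kb and all genes at 0.147, 0.101 and 0.243.

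By subgroup, past-end summits were in 8 of 13 P granule genes, 6 of 16 translational control genes, 4 of 6 egg shell genes and 2 of the other 4 in the pooled list, against 11.3% of all genes. The strongest pooled peak of a gene, from 1000 bp upstream to 500 bp past the end, was upstream in 10 members, in the gene body in 12 and past the end in 11. Body peaks included those of cey-3 (83.0), prg-1 (68.6) and oma-1 (64.4), which had no start peak in the pooled list. The cey-3 summit lay at 97.2% of the gene body, close to the annotated end, and in replicate 2 a summit lay 36 bp past it. Any pooled summit over this whole span was present in 33 of 39 members (84.6%), against 38.6% of all genes. The 6 without one were glh-3, egg-2, nos-2, meg-1, ego-1 and fbf-1. Members are somewhat longer than other genes, with a median of 2581 bp against 2027 bp.

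Other genes of the same pathways were also examined. Of 50 such genes listed, 48 matched the annotation, and 20 of these were marked in the pooled list (41.7%, against 21.0% of all genes and 61.5% of members). In replicate 1 it was 24 (50.0%, against 30.9% of all genes), in replicate 2 it was 22 (45.8%, against 26.5%) and in both it was 15 (31.2%, against 15.5%). The thresholded list marked 3 of them (6.25%, against 2.33% of all genes and 5.13% of members). The strongest was atx-2, the worm ataxin-2 gene, with signals of 243 (rank 51), 126 (rank 46) and 108.6 (rank 79) at 60 to 68 bp upstream. The egg activation gene egg-5 followed (165, 77.1 and 89.4), with a summit near the short RNA gene sls-2.4. The zinc finger gene mex-1 had 109.8, 66.6 and 40.1, but its summit lay nearer to W03C9.5. Then came rnp-8, a partner of GLD-2 (87.6, 31.1 and 55.6), and the translation repressor gene ifet-1 (83.9, 42.7 and 42.9), whose summit was nearer to rps-1. Past-end summits were in 11 of the 48 in the pooled list (22.9%), against 11.3% of all genes.

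High shares were not limited to germ line genes. Ribosomal protein genes, which all cells use, were marked in 55 of 77 (71.4%) in the pooled list, against 21.0% of all genes. They had past-end summits in 47 (61.0%), against 11.3% of all genes, and both shares were above the members. Within 250 bp of a start the order was the other way, with 15 of 77 ribosomal protein genes (19.5%) and 10 of 39 members (25.6%). Genes of FMRFamide-like neuropeptides, which serve in neurons, were marked in 5 of 31 (16.1%), near the 21.0% of all genes. Their shares in replicates 1 and 2 were 25.8% and 22.6%, against 30.9% and 26.5% of all genes. Genes of the major sperm protein, a family of close copies that serves in sperm, were marked in 1 of 31 (3.23%). Transcript levels are not analysed here, and their part in these shares was not tested.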

How the data were processed

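ChIP-seq peaks of 2 biological replicates of 1 group were analysed. Per the file listings deposited with the samples, the authors called peaks for each replicate and for the pooled replicates, and thresholded the pooled peaks on the irreproducible discovery rate. The deposited signal value of each peak is the peak caller's own and was not scaled between lists. Neither aligner nor caller is named in the sources used here, and depth is unknown. The ce11 lists were used, since the gene models are those of WBcel235 (Ensembl release 115); the ce10 lists were not used. Coordinates count from 1.

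Summits were assigned to start windows with Python 3.11.15 and numpy 2.4.6, and the strongest window peak stood for a gene. The assignment was tested on simulated summits. With 1 group and no control, no p-value was computed. The members and gene lists were chosen with earlier results of these data known. Full values are given for members marked in the pooled and both replicate lists, in order of pooled signal within their role, and for the strongest of each subgroup and the 5 strongest further germ line genes. The further genes cde-1 and rde-3 did not match the annotation. Sequences are those of up to 6 members with the highest pooled signal outside 1 chromosome whose sequence is not printed. Alternatives were other windows, starts, peak subsets, overlap rules and single replicates.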

Additional observations from a re-analysis of the deposited data

How the results depend on the processing

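No paired analysis was possible because there is 1 group and no test. The count of 24 marked members moved by over 1.5 times under a narrower window and with fewer peaks, and its share stayed above that of all genes. A window of 250 bp on each side gave 10 members (25.6%, against 9.62% of all genes), among them 2 P granule, 4 translational control and 1 of the other 4 genes. It also gave 10 further germ line genes, 15 ribosomal protein genes, 0 sperm protein and 0 neuropeptide genes. Both replicates then marked 6 members (15.4%, against 5.64% of all genes), and the median member signal was 0. The stronger part of each list, cut at its median, and the 5000 strongest peaks each gave 14 members (35.9%, against 12.3% of all genes). In the pooled list of 10019 peaks these settings keep nearly the same peaks, so their pooled counts are not separate checks. Among them were 3 P granule, 2 egg shell and 1 of the other 4 genes. Both settings also gave 13 further germ line, 0 sperm protein and 2 neuropeptide genes and a median of 0. With the 5000 strongest, both replicates marked 7 members (17.9%, against 5.75% of all genes). The thresholded list gave 2 members (5.13%, against 2.33% of all genes), with 0 P granule, 0 translational control, 1 egg shell and 1 of the other 4 genes. It also gave 3 further germ line, 16 ribosomal protein, 0 sperm protein and 1 neuropeptide genes. Body peaks were in 0 members (against 1.04% of all genes) and past-end peaks in 4 (10.3%, against 1.16%). Counting any base of a peak gave 22 members in both replicates (56.4%, against 18.7% of all genes) and a median of 43.5. With 2000 bp upstream, 3 sperm protein genes (9.68%, against 27.9% of all genes) and a median of 45.3 were found. With the outermost start only, these were 3 neuropeptide genes (9.68%, against 18.8%) and a median of 42.4. Leaving out replicate 1 means the replicate 2 list alone, and leaving out replicate 2 the replicate 1 list alone. Their member counts are thus those given above and no further check of the pooled count. Replicate 2 alone had 20 members (51.3%, against 26.5% of all genes), 2 sperm protein genes and 7 neuropeptide genes. Replicate 1 alone had 28 members (71.8%, against 30.9% of all genes), 2 sperm protein genes and 8 neuropeptide genes. Fewer peaks or another window change such counts by construction. The any-base rule moved the members in both replicates from 14 to 22, while the share of all genes went from 15.5% to 18.7%. Of all alternative values, 90 stayed within 1.5 times or did not move. These include the 20 and 28 members and the 7 neuropeptide genes of the single replicates given here. The medians of 43.5, 45.3 and 42.4 were close to the 42.7 of the main setting. All settings for gene bodies and gene ends, and those for the other 4 genes and the comparison classes, were chosen after seeing the data. Depth is unknown, so a weak or missing peak cannot be given a limit.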
